A study of Mus musculus with 4 samples.

Results

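Interferon-induced and antigen presentation genes were followed in fetal livers of C57BL/6J mice, as a list of 40 genes chosen by name. For each gene, the probe with the highest mean log2 signal over the 4 arrays was taken among the probes whose RefSeq transcript belongs to that gene. A probe was matched to 38 of the 40 genes, out of 22909 genes with a probe on the array, and all 38 passed the filter on low signals. No probe was matched to Mx1 and Mx2, antiviral GTPases that the RefSeq annotation of this strain lists as transcribed pseudogenes, so they are named only.

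The samples were total liver RNA of mid-gestation fetuses whose dams ate during gestation a control diet (CD), with 4.3% of its energy from fat, or a high-fat diet (HFD), with 60%. There were 2 arrays for each diet, which the submitters describe as biological replicates, and the number of fetuses and dams behind each array is not given in the sources used here. The comparison asks how the maternal diet alters gene expression in the fetal liver. The 4 arrays lay on 1 slide, with the CD arrays at positions 1 and 2 and the HFD arrays at positions 3 and 4, so that position on the slide and diet cannot be told apart.

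Many interferons are secreted by cells that detect foreign nucleic acid. Interferons act through surface receptors, Janus kinases and Stat transcription factors on the cells around their source. The induced genes encode proteins that block viral replication, the sensors and transcription factors that amplify the response, and GTPases that attack vacuoles of intracellular microbes. Interferons also raise the major histocompatibility complex (MHC) genes. The class I products present peptides of the cell's own proteins on nearly all cells. The class II products present engulfed material on macrophages, dendritic cells and B cells. In the fetal liver these genes are expressed in a tissue made of hepatoblasts and of the blood-forming cells that lodge there. In such bulk tissue, fewer cells of a type and less RNA per cell cannot be told apart.

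Before the results, 1 property of the samples has to be stated. The labels give the gender as female for all 4 samples, without saying whether dam or fetus is meant. CD replicate 1 and HFD replicate 1 had the Y-linked transcripts Ddx3y, Eif2s3y, Kdm5d and Uty well above background and Xist not well above background, and CD replicate 2 and HFD replicate 2 had the reverse. The replicate number therefore coincides with these sex-linked transcripts, and a difference between replicates 1 and 2 cannot be told apart from one between such samples. Differences within the pairs of equal number (HFD 1 minus CD 1, HFD 2 minus CD 2) are given beside the main results.

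Some of the members have in their promoter a sequence through which interferons are known to act. The core of the interferon-stimulated response element, taken here as 2 GAAA words with any 2 bases between them on either strand, was present in the window from 250 bases before to 50 bases after the start of 15 of the 32 member genes with a promoter in the RefSeq table (46.9%), against 1079 of 27025 genes in all (3.99%). Stretches upstream of the start site are shown for Ifit3, the member whose diet difference had an unadjusted p under 0.05. They are also shown for some other members, of the same and of other roles, that carry the same element. They are written 5′ to 3′ on the strand of the gene, with the matches in capitals (TTTC words where the match is on the opposite strand), and overlapping matches run together.
Ifit3 (GRCm38.p6, chr19:34583361-34583428, plus strand): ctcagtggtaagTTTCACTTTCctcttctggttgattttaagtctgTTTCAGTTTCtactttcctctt
Ifit1 (GRCm38.p6, chr19:34640773-34640825, plus strand): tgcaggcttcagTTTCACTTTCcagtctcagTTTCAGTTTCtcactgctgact
Isg15 (GRCm38.p6, chr4:156200863-156200908, minus strand): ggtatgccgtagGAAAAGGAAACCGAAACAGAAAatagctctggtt
Oas1a (GRCm38.p6, chr5:120907526-120907557, minus strand): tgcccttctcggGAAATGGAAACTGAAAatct
Irgm1 (GRCm38.p6, chr11:48871423-48871462, minus strand): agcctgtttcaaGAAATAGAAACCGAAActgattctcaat
B2m (GRCm38.p6, chr2:122147536-122147569, plus strand): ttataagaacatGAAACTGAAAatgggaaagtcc

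A second element, the Y box CTGATTGG that MHC promoters share, was present on either strand in 7 of the 32 members (21.9%), against 1271 of 27025 genes in all (4.70%). It is shown for 1 class I and 2 class II genes, with the match in capitals (CCAATCAG where it is on the opposite strand). The searched letters of both motifs can lie in 1 window and can overlap by a G. A match describes the letters of the reference and not a site in use.
H2-D1 (GRCm38.p6, chr17:35263029-35263060, plus strand): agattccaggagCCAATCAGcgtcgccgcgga
H2-Aa (GRCm38.p6, chr17:34287855-34287886, minus strand): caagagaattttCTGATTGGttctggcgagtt
H2-Eb1 (GRCm38.p6, chr17:34305793-34305824, plus strand): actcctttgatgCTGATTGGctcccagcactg

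Nearly all members were measured in the fetal liver of both groups. Of the 38, 37 had a signal well above background on all 4 arrays, and Oas3 had it on CD replicate 1 and HFD replicate 2 only, that is on 1 array of each group. Levels below are log2 signals relative to the 75th percentile of the array, which is 0, and they are compared between arrays and not between genes, because each probe has its own brightness. Pairs of values under CD and under HFD give replicate 1 and then replicate 2. Differences are HFD minus CD on the log2 scale from limma, a linear model that shares information on the spread between probes, with 2 arrays a group.

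The members as a set lay close to 0 in the comparison of the diets. Of the 38, 20 were higher and 18 lower in the HFD group, with a median difference of 0.01, against 57.6% higher and a median of 0.04 over the 18192 genes tested. The differences ranged from -0.65 for Ifit3 to 0.35 for Isg20. At an unadjusted p under 0.05, limma placed 0 members higher and 1 lower, Ifit3, against 1.38% and 1.46% of all genes tested. At that p with a change of at least 2-fold it placed 0 members on either side, against 0.286% of all genes higher and 0.478% lower. With p adjusted by Benjamini-Hochberg, limma called 0 members and 0.0% of all genes, every adjusted p being 1.00. The 95% confidence interval lay inside a 2-fold change in either direction for 33 of the 38 members and for 78.4% of all genes tested. The 5 members whose interval reached further were Ifit1, Ifit3, Oas3, H2-Eb1 and Cd74. The median half-width of the interval was 0.52 for the members and 0.54 for all genes.

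**Figure D1:**
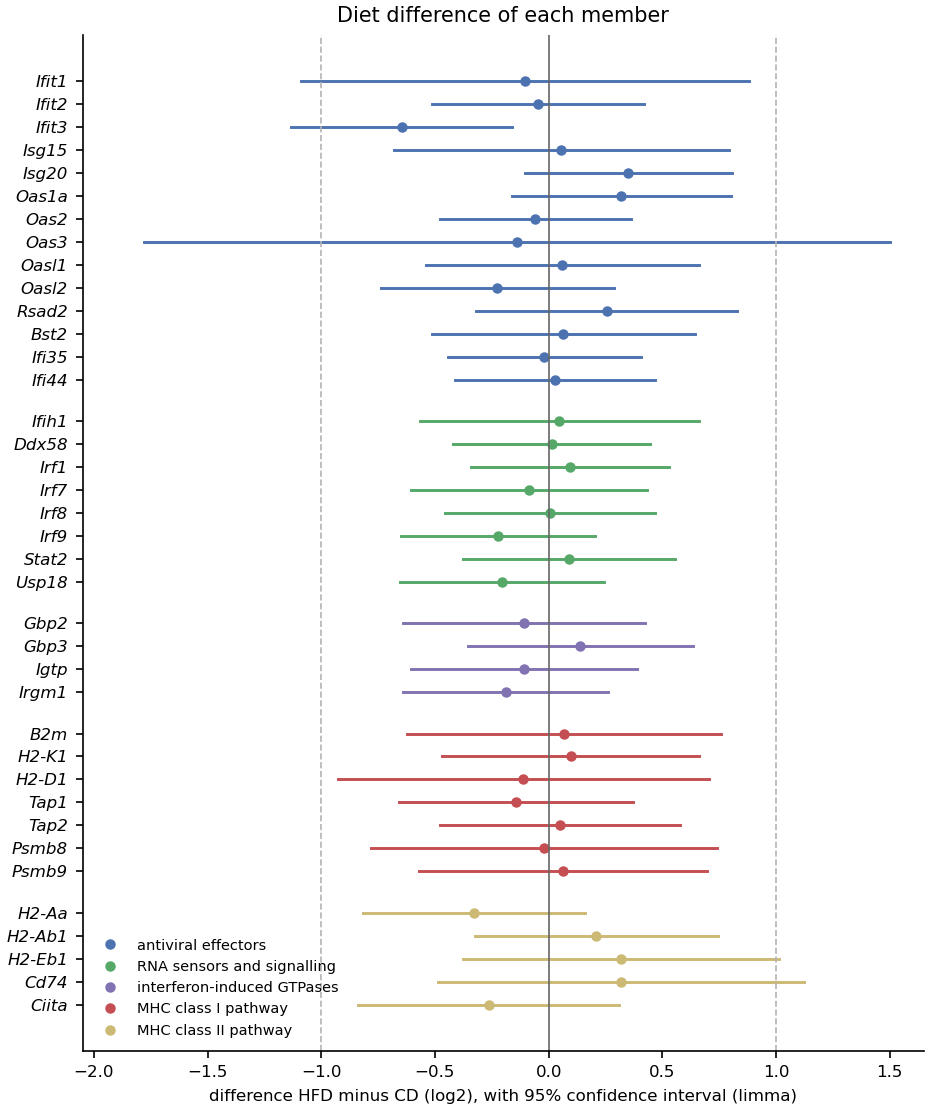
Diet difference of each of the 38 members (HFD minus CD, log2, points) with its 95% confidence interval from limma (bars), coloured by role, with dashed lines at a 2-fold change. The interval of Ifit3 alone leaves out 0, and 33 of the 38 intervals lie between the dashed lines.

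Within the pairs of equal number, the median over the members was 0.00 for HFD 1 minus CD 1 (19 of 38 higher) and -0.08 for HFD 2 minus CD 2 (16 of 38 higher). The same medians over all genes were 0.09 and 0.02. The arrays of the CD group differed from each other by more than the diet difference in 25 of the 38 members, and in 71.7% of all genes tested. The median absolute difference between arrays was 0.26 for the members in the CD group and 0.08 in the HFD group, so that the HFD arrays were the closer pair.

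Antiviral effectors were balanced between higher and lower, and 1 of them had an unadjusted p under 0.05. Of the 14 measured, 7 were higher and 7 lower, with a median difference of 0.00. Ifit3, an antiviral protein of the tetratricopeptide repeat family, had levels of -1.41 and -1.69 under CD and -2.22 and -2.18 under HFD. Both HFD arrays lay below both CD arrays. The mean level was -1.55 ± 0.20 (SD, n = 2) in the CD group and -2.20 ± 0.03 (SD, n = 2) in the HFD group. The difference was -0.65 with an SE of 0.18, a level 1.57-fold higher in the CD group (95% confidence interval of HFD over CD, 0.456 to 0.895; limma, unadjusted p = 0.020, adjusted p = 1.00). Within the pairs of equal number it was -0.81 and -0.48. The unadjusted limma p rose to 0.169 without HFD replicate 1 and to 0.141 without HFD replicate 2, with differences of -0.62 and -0.67. With 2 arrays in each group, the smallest p that an exact permutation test allows is 0.333.

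The other members of the Ifit family did not pass the test, and whether they differed from Ifit3 was not tested. Ifit1, whose product recognises RNA that lacks the host's cap methylation, had levels of -2.78 and -3.78 under CD and -3.48 and -3.29 under HFD. The groups overlapped, and the CD arrays were the 2 extremes. Its difference was -0.10 (SE 0.37), and it was -0.60 without CD replicate 2 (limma, unadjusted p = 0.028, adjusted p = 0.335) and 0.39 without CD replicate 1. Ifit2, a related protein, had a difference of -0.05 (SE 0.18). Ifit3b, a near-identical copy of Ifit3 that is not a member and was looked at after the values of Ifit3 were known, had levels of -3.28 and -3.85 under CD and -4.20 and -4.00 under HFD. Its groups did not overlap either, its difference was -0.53 (SE 0.25; limma, unadjusted p = 0.096, adjusted p = 1.00), and the probes of such copies can bind each other's transcripts.

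**Figure D2:**
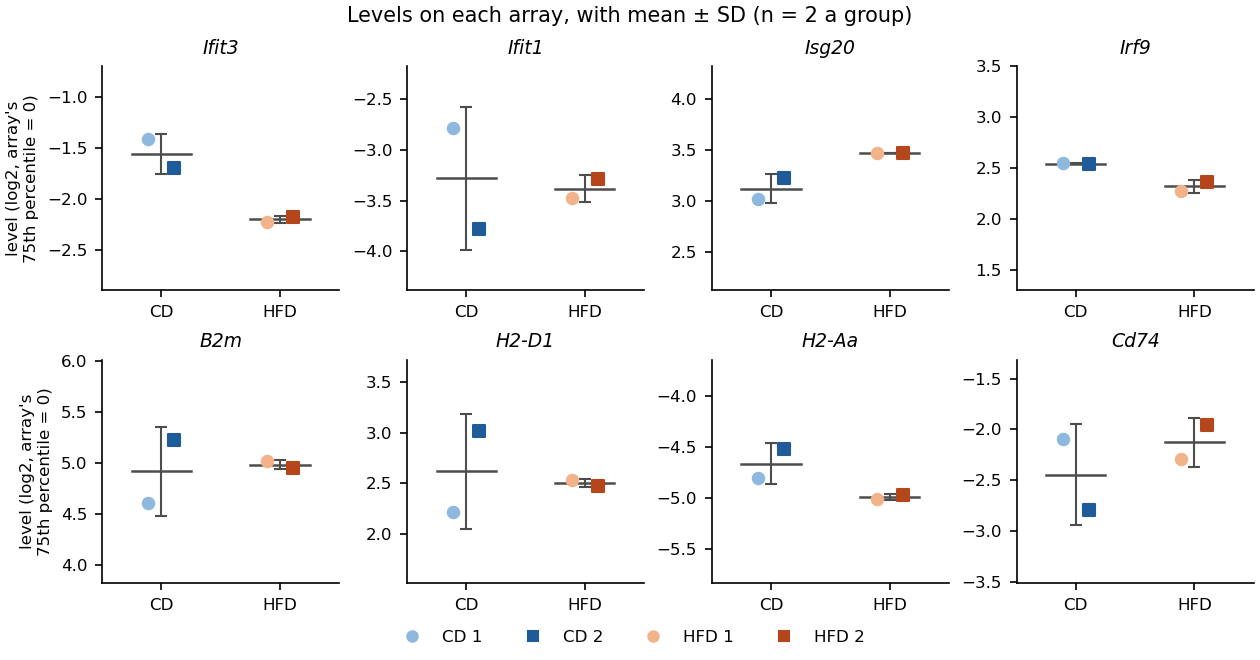
Levels of 8 members on each array (log2, with the 75th percentile of the array at 0), circles for replicate 1 and squares for replicate 2, with the mean and SD of each group (n = 2), all panels spanning the same range. Ifit3 and H2-Aa have both HFD arrays below both CD arrays, Isg20 has them above, and in B2m and H2-D1 the CD arrays lie on either side of both HFD arrays.

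Among the other antiviral effectors, Isg20 and Oas1a had both HFD arrays above both CD arrays. Isg20, an exonuclease that degrades RNA, had levels of 3.02 and 3.22 under CD and 3.47 on each HFD array. The HFD arrays differed by 0.00, and the diet difference was 0.35 (SE 0.17; limma, unadjusted p = 0.102, adjusted p = 1.00). A second probe of Isg20 had a difference of 0.06, and its groups overlapped. Without CD replicate 2 the difference of Isg20 was 0.45. Oas1a, an oligoadenylate synthetase that activates RNase L, had levels of 0.50 and 0.70 under CD and 0.83 and 1.01 under HFD. Its difference was 0.32 (SE 0.18; limma, unadjusted p = 0.145, adjusted p = 1.00).

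The rest of the oligoadenylate synthetase family lay near 0 or was spread widely. Oas2 had levels of -0.89 and -0.95 under CD and -0.99 and -0.96 under HFD, which did not overlap, with a difference of -0.06. Oas3 had levels of -5.59 and -6.35 under CD and -6.93 and -5.29 under HFD, at the edge of detection, and its interval reached from -1.78 to 1.50. The related genes Oasl1 and Oasl2 had differences of 0.06 and -0.23. A second, dimmer probe of Oasl1 went the other way, with levels of -3.16 and -3.03 under CD and -3.42 and -3.39 under HFD. Its groups did not overlap, and its difference was -0.31 (limma, unadjusted p = 0.127).

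Isg15, a ubiquitin-like protein that is attached to other proteins, had levels of 2.77 and 2.41 under CD and 2.35 and 2.94 under HFD. The lowest and the highest value were both HFD arrays, and the difference was 0.06 (SE 0.28). Rsad2, which makes a chain-terminating nucleotide, had levels of -1.33 and -1.57 under CD and -1.38 and -1.01 under HFD, with a difference of 0.25 (SE 0.22). The tetherin gene Bst2, and Ifi35 and Ifi44, had differences between -0.02 and 0.07. None of these passed an unadjusted p of 0.05.

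The RNA sensors and signalling members differed by -0.22 to 0.09. Of the 8, 5 were higher and 3 lower, with a median difference of 0.01, and all 8 intervals lay inside a 2-fold change. Irf9, a DNA-binding transcription factor of the interferon response, had levels of 2.55 and 2.54 under CD and 2.27 and 2.37 under HFD. Its groups did not overlap, and its difference was -0.22 (SE 0.16; limma, unadjusted p = 0.229, adjusted p = 1.00). The second probe of Irf9, with levels of 1.27 and 1.36 under CD and 0.96 and 0.98 under HFD, also had groups that did not overlap and a difference of -0.34. In the methods' t-test, which uses the spread of the gene alone, Irf9 had an unadjusted p of 0.041 and an adjusted p of 0.982.

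Usp18, which removes Isg15 from proteins and restrains the interferon receptor, had levels of -0.60 and -0.42 under CD and -0.74 and -0.69 under HFD. These did not overlap, and the difference was -0.21 (SE 0.17; limma, unadjusted p = 0.286, adjusted p = 1.00). Stat2, the partner of Irf9, had a difference of 0.09. Irf1, a transcription factor induced by interferon gamma, had levels of 1.92 and 1.79 under CD and 1.97 and 1.93 under HFD, with a difference of 0.09. A second, dimmer probe of Irf1 went the other way, with levels of -4.24 and -3.88 against -4.63 and -4.46 and a difference of -0.49 (limma, unadjusted p = 0.069, adjusted p = 1.00), so that the direction of Irf1 rests on the probe.

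The remaining members of this group differed by less than 0.1. These were the cytosolic RNA sensors Ifih1 (0.05) and Ddx58 (0.01), Irf7, which amplifies the production of interferon alpha (-0.09), and Irf8, a transcription factor of macrophages and dendritic cells (0.01). Irf8 had levels of 1.22 and 1.45 under CD and 1.36 and 1.32 under HFD, with both HFD arrays inside the range of the CD arrays.

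The interferon-induced GTPases were lower in 3 of 4 genes, and none had an unadjusted p under 0.05. The median difference was -0.11. Irgm1, a regulator of the other immunity-related GTPases and of autophagy, had levels of 1.50 and 1.68 under CD and 1.38 and 1.41 under HFD. These did not overlap, the difference was -0.19 (SE 0.17; limma, unadjusted p = 0.318, adjusted p = 1.00), and the 2 other probes of Irgm1 had differences of -0.22 and -0.40, also without overlap. Igtp and Gbp2, which act on vacuoles of microbes, had a difference of -0.11 each, and Gbp3 had 0.14. In all 4 genes CD replicate 2 was above CD replicate 1, by 0.18 to 0.37.

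Counted over all roles, 3 members had both HFD arrays above both CD arrays (Isg20, Oas1a and Irf1) and 6 had them below (Ifit3, Oas2, Irf9, Usp18, Irgm1 and H2-Aa), against 23% and 10.1% of all genes tested. Members that carry the response element had a median difference of 0.05 (15 genes, 9 higher), and members with a promoter in the table and no match had a median of -0.02 (17 genes, 8 higher). Ifit3, Ifit1 and Isg15, whose elements are printed above, had differences of -0.65, -0.10 and 0.06.

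**Figure D3:**
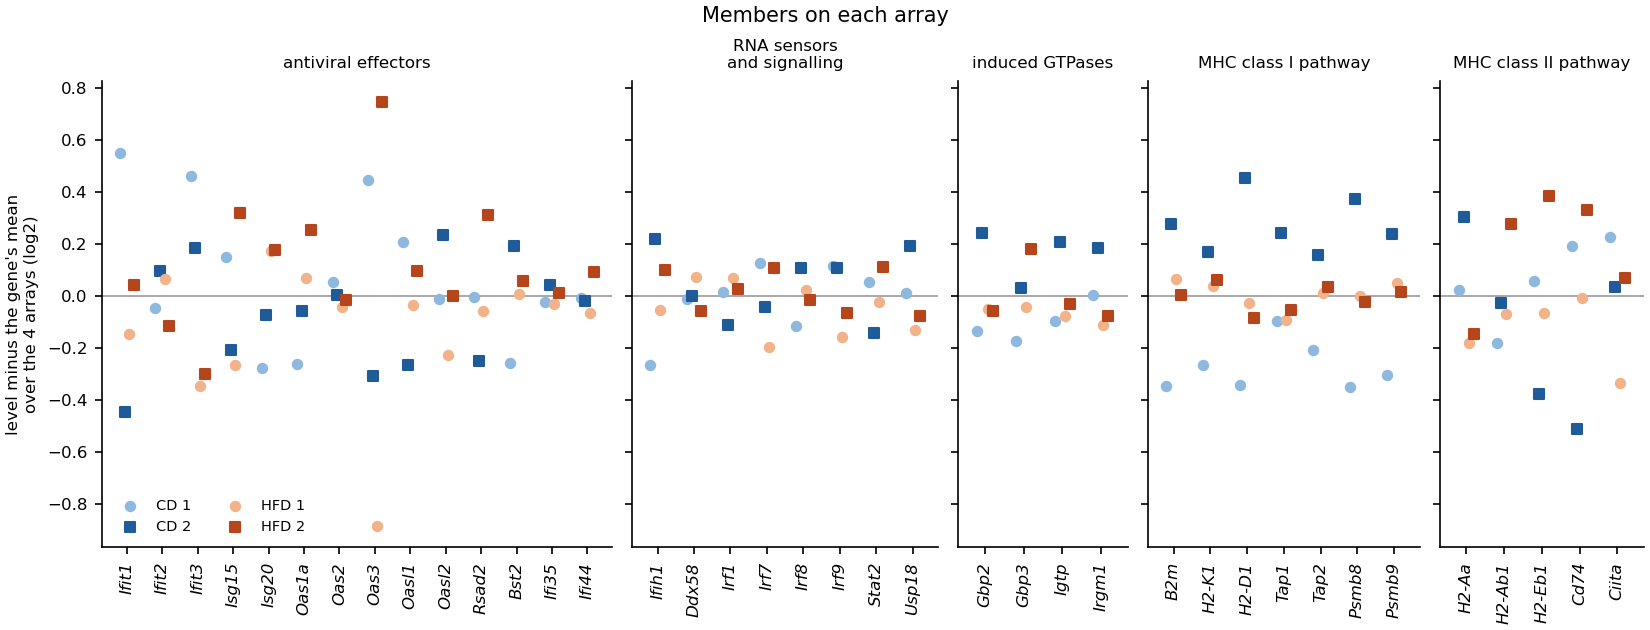
Level of each of the 38 members on each array minus the mean of the gene over the 4 arrays (log2), in panels by role, with blue for CD, orange for HFD, circles for replicate 1 and squares for replicate 2. In the 7 class I genes CD replicate 2 is the highest and CD replicate 1 the lowest array, with both HFD arrays between them.

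The MHC class I genes had small differences between the diets and larger ones between the 2 CD arrays. Of its 7 genes, 4 were higher and 3 lower in the HFD group, with a median difference of 0.05, differences from -0.14 to 0.10 and all 7 intervals inside a 2-fold change. In all 7 the level of CD 2 exceeded that of CD 1, by 0.34 to 0.79 with a median of 0.54, where the median over all genes was 0.06 with 55.5% higher. The HFD arrays differed by -0.06 to 0.04 in the same genes, with a median of -0.02.

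B2m, the invariant light chain of class I molecules, had levels of 4.60 and 5.23 under CD and 5.01 and 4.95 under HFD. The CD arrays lay on either side of both HFD arrays, and the mean was 4.92 ± 0.44 (SD, n = 2) in the CD group and 4.98 ± 0.04 (SD, n = 2) in the HFD group. H2-K1 and H2-D1, the class I heavy chains, also had the CD arrays as the lowest and the highest. H2-K1 had levels of 4.39 and 4.83 under CD and 4.69 and 4.72 under HFD. H2-D1 had levels of 2.22 and 3.02 under CD and 2.53 and 2.48 under HFD. A second probe of H2-K1 also had the CD arrays as the extremes, at 2.39 and 3.13 against 2.74 and 2.50. The heavy chain genes of this family resemble each other closely, and their probes can bind each other's transcripts.

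The peptide supply genes lay the same way. Psmb8, a subunit of the immunoproteasome that cuts peptides for class I molecules, had levels of -0.44 and 0.29 under CD and -0.08 and -0.11 under HFD. Psmb9, another such subunit, had -0.08 and 0.46 under CD and 0.27 and 0.23 under HFD. Tap1 and Tap2, which together form the peptide transporter, were higher by 0.34 and 0.36 on CD replicate 2. In all 7 class I genes both HFD arrays lay between the CD arrays, although in Tap1 the array HFD 1 exceeded CD 1 by 0.00 after rounding.

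The diet difference of the class I group rested on which CD array was kept. With CD replicate 1 left out its median was -0.24, and with CD replicate 2 left out it was 0.31. Without CD replicate 1, H2-D1 had a difference of -0.51 and Psmb8 of -0.38. Without CD replicate 2, B2m had a difference of 0.38. The pairs of equal number gave the same contrast, with a median of 0.31 for HFD 1 minus CD 1 (7 of 7 higher) and of -0.27 for HFD 2 minus CD 2 (0 of 7 higher).

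Bright genes in general moved in the same direction between the CD arrays, by less than the class I genes. Among the 9467 genes with a mean level above 0, the median of CD 2 minus CD 1 was 0.14 with 65.6% higher. Among the 8725 genes below 0 it was -0.08 with 44.6% higher, and Tap1 and Psmb8 had mean levels below 0 in both groups. Quantile normalization gives all arrays the same distribution of signals. After it, the median was 0.02 over all genes and 0.01 over the genes above 0, of which 50.9% were higher. The 7 class I genes were still higher on CD replicate 2, by 0.25 to 0.74 with a median of 0.41. The part of the array's brightness in the class I values was not tested beyond this.

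**Figure D4:**
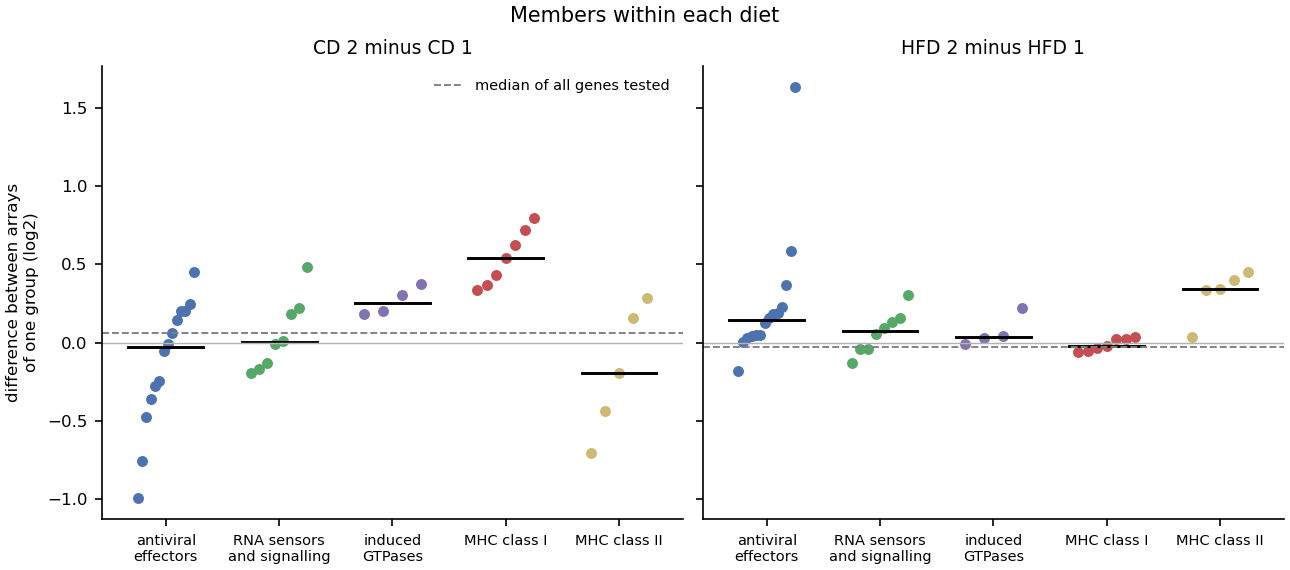
Difference between the 2 arrays of a group (log2) for each member by role (points), CD replicate 2 minus CD replicate 1 on the left and HFD replicate 2 minus HFD replicate 1 on the right, with the median of the role (black line) and of all genes tested (dashed line). The 7 class I genes lie between 0.34 and 0.79 in the CD group and between -0.06 and 0.04 in the HFD group.

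The MHC class II genes had another order over the arrays than class I. Of its 5 genes, 3 were higher and 2 lower in the HFD group, with a median difference of 0.21, and 2 of the 5 intervals reached beyond a 2-fold change. Cd74, the invariant chain that guides class II molecules to the endosome, had levels of -2.09 and -2.79 under CD and -2.29 and -1.96 under HFD. H2-Eb1, a class II beta chain, had -0.94 and -1.38 under CD and -1.06 and -0.61 under HFD. In both genes CD replicate 2 was the lowest and HFD replicate 2 the highest array, and both had a difference of 0.32 (SE 0.30 and 0.26).

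H2-Ab1, the beta chain that pairs with the product of H2-Aa, had levels of -0.10 and 0.06 under CD and 0.02 and 0.36 under HFD, with a difference of 0.21. Its 3 other probes had differences of 0.19, -0.03 and -0.16, so that the probes of this gene did not share a direction. H2-Aa had levels of -4.80 and -4.52 under CD and -5.01 and -4.97 under HFD. Its groups did not overlap, and the difference was -0.33 (SE 0.18; limma, unadjusted p = 0.142, adjusted p = 1.00), or -0.47 without CD replicate 1. The probe of H2-Aa was dim, with intensities of 29.0 to 38.4, and its difference lay between -0.47 and -0.15 over the alternatives. Ciita, the master regulator of class II transcription, had -3.62 and -3.82 under CD and -4.18 and -3.78 under HFD, with a difference of -0.26 (SE 0.22).

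In all 5 class II genes HFD 2 exceeded HFD 1, by 0.04 to 0.45 with a median of 0.34, and in 2 of the 5 CD 2 exceeded CD 1. Among the 14 antiviral effectors, HFD 2 exceeded HFD 1 in 13, with a median of 0.14, and CD 2 exceeded CD 1 in 6. Over all genes, 42.6% were higher on HFD replicate 2. The share was 34.0% among genes with a mean level above 0 and 52.0% among genes below 0. The class II diet median was -0.03 without CD replicate 2, 0.13 without CD replicate 1, 0.38 without HFD replicate 1 and 0.036 without HFD replicate 2, so that it rested on single arrays.

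Over the members with more than 1 probe, 12 had 2 or more tested probes well above background on all arrays. In 7 of them all such probes had the same sign, and in Ddx58, H2-Ab1, H2-K1, Irf1 and Oasl1 they had both signs. Of the 38 members, 22 were measured by 1 probe, Ifit3 among them.

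The wider pathway was read from 88 further genes, of which 81 had a probe and 76 were tested. At an unadjusted p under 0.05, limma placed 1 of the 76 higher and 1 lower, a share near the 1.38% and 1.46% of all genes. Their median difference was -0.03 with 39.5% higher, against 0.04 and 57.6% over all genes. Among 27 further interferon-induced genes, 7 were higher and 20 lower, with a median of -0.09. The gene that passed was Ifi27, a mitochondrial protein gene induced by interferon alpha, with levels of 2.71 and 2.46 under CD and 3.04 and 3.17 under HFD. Both HFD arrays were above both CD arrays, and the difference was 0.52 (SE 0.18; limma, unadjusted p = 0.042, adjusted p = 1.00). The unadjusted p was under 0.05 in 7 of 16 alternatives, and it was 0.058 without CD replicate 2, 0.192 without HFD replicate 1, 0.312 without HFD replicate 2 and 0.101 with the replicate number as a block. The 2 with the highest mean level in this list, Trim25, a ligase that activates the RNA sensor Ddx58, and Ifitm3, which blocks viral entry, had differences of -0.03 and -0.14.

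Among 19 further antigen presentation genes, 10 were higher and 9 lower. H2-Oa, a subunit of the H2-O protein that restrains peptide loading of class II molecules, had levels of -3.91 and -3.29 under CD and -4.63 and -4.37 under HFD. Both HFD arrays were below both CD arrays, and the difference was -0.90 (SE 0.27; limma, unadjusted p = 0.025, adjusted p = 1.00). The unadjusted p was under 0.05 in 11 of 16 alternatives and 0.108 without HFD replicate 1, and the difference was -0.39 after normexp background correction (limma, unadjusted p = 0.116). The chaperones Canx and Calr, which fold class I molecules and many other proteins, had differences of 0.08 and 0.07.

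Several of the interferon genes themselves were near background. Of 12 interferon genes, 10 had a probe and 6 were tested, and Ifnb1, Ifng, Ifna4 and Ifne, named here because of their levels, stayed near background on each of the 4 arrays (none flagged as well above it). The 2 with the highest mean level, Ifnl3 and Ifna9, had differences of 0.16 and -0.23. The 24 receptors, kinases and sensors were all tested, and 10 were higher and 14 lower with a median of -0.02. Irf3 and Jak1, the transcription factor and the kinase with the highest mean levels in that list, had differences of -0.01 and -0.03. Socs1, an inhibitor of the kinases, named after its values were seen, had levels of -0.24 and -1.13 under CD and -0.73 and -0.71 under HFD, with CD 1 the highest and CD 2 the lowest array.

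Markers of the cells that could carry these genes were read beside them. All 10 hepatoblast markers and all 7 measured erythroid markers rose well above background on every array, so that the defining markers of the labelled tissue were present, and their median differences between the diets were -0.03 and 0.17. Of 12 macrophage markers, 10 had such signals on all arrays and Vsig4 on none, and the median difference was 0.10. The levels of the macrophage list, each gene taken relative to its mean over the arrays, had medians of -0.21 and 0.24 under CD and 0.02 and 0.04 under HFD. The class I pathway had -0.30 and 0.24 under CD and 0.01 and 0.00 under HFD. Hepatoblast markers had -0.27 and 0.25 under CD and 0.03 and 0.01 under HFD, and granulocyte markers had -0.28 and 0.33, and 0.07 and -0.06. Erythroid markers had -0.32 and 0.15 under CD and 0.07 and 0.08 under HFD. B lymphoid markers had -0.09 and 0.10 under CD and -0.05 and 0.01 under HFD. In each of these lists, as in class I and the interferon-induced GTPases, CD 1 was the lowest and CD 2 the highest array. The remaining marker lists had other orders. Dendritic cell markers had -0.12 and 0.03 under CD and -0.07 and 0.04 under HFD. T and NK cell markers had -0.08 and 0.17, and 0.04 and -0.24. Endothelial markers had 0.02 and 0.01, and -0.06 and 0.08. The part of these cells in the class I result was not tested.

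Cells that carry class II molecules were also read. Summed over the list as multiples of the 75th percentile of the array, the macrophage markers reached 53.6 and 68.4 on the CD arrays and 66.8 on each HFD array. The dendritic cell markers reached 78.3 and 78.8 under CD and 73.7 and 79.1 under HFD, with 5 of 7 well above background on all arrays and Xcr1 on none. The probe of Siglech made up 98.9% to 99.1% of that sum. The other dendritic cell markers summed to 0.717 and 0.774 under CD and 0.778 and 0.866 under HFD. Of the 6 tested, all named here, 3 were higher in the HFD group (Clec9a by 0.44, Zbtb46 by 0.17 and Flt3 by 0.10). The other 3 were lower, with differences of -0.05 for Itgax and -0.04 for Siglech and Cd209a. The median was 0.03, none had an unadjusted p under 0.05 in limma, and the groups did not overlap in Clec9a and Flt3. The B lymphoid markers reached 3.36 and 3.52 under CD and 3.49 and 3.86 under HFD, with 6 of 8 well above background on all arrays and Ms4a1 on none. The part of these cells in the class II values was not tested.

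Markers of T and NK cells were near background in part, and 1 of them passed the test. Of the 7, 4 had signals well above background on all arrays and Ncr1 and Cd2 on none, and the list summed to 1.86 and 1.99 under CD and 2.06 and 2.30 under HFD, of which Cd3e made up 48.5% to 73.5%. Of the 6 tested, 2 were higher and 4 lower in the HFD group. Klrb1c, the NK cell receptor NK1.1, had levels of -3.88 and -4.07 under CD and -4.82 and -4.60 under HFD, with a difference of -0.74 (limma, unadjusted p = 0.013, adjusted p = 1.00). Cd3d and Cd3e, of the T cell receptor complex, had differences of 0.48 each with both HFD arrays above both CD arrays (limma, unadjusted p = 0.075 and 0.084, adjusted p = 1.00), and Cd3g of the same complex had -0.43 with both below.

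Markers of tissues other than liver differed between the arrays as well. All 8 neuron markers were lower in the HFD group, with a median of -0.69, 2 of them, Dcx (-0.82) and Tubb3 (-0.83), had an unadjusted p under 0.05 in limma and an adjusted p of 1.00, and the sum of the list was 30.9 and 21.2 under CD and 15.2 and 22.2 under HFD. The neuron markers had relative levels of 0.65 and 0.04 under CD and -0.60 and -0.03 under HFD, and Ifit3 had 0.46 and 0.18, and -0.35 and -0.30. Trophoblast and decidua markers, of which 8 of 9 had signals well above background on all arrays and Syna on none, summed to 63.3 and 63.4 under CD and 47.8 and 50.5 under HFD. The probe of Gcm1 made up 30.7% to 95.9% of that sum, and the others summed to 13.1 and 43.9 under CD and 4.52 and 2.08 under HFD. Of the 5 tested, 3 were higher (Gcm1 by 0.55, Plac1 and Prl8a2 by 0.06 each) and 2 lower in the HFD group. The junctional zone gene Tpbpa had levels of 3.01 and 4.80 under CD and 1.00 and -1.01 under HFD, and Prl3b1 and Prl8a9 also had both HFD arrays below both CD arrays. These 3 were left out of the test by the filter on the CV. The part of these tissues in the levels of Ifit3 and of the other members was not tested.

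**Figure D5:**
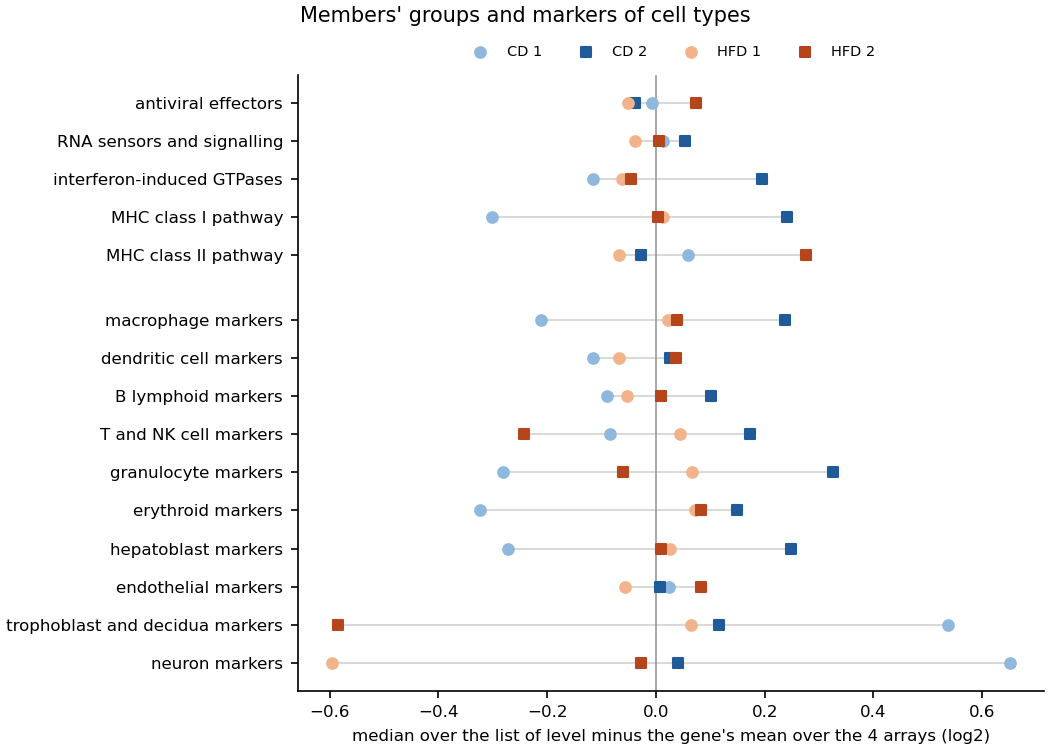
Median over each list of the level minus the gene's mean over the 4 arrays (log2), for the roles of the members (top) and for markers of cell types (bottom), with blue for CD, orange for HFD, circles for replicate 1 and squares for replicate 2. CD replicate 1 is the lowest and CD replicate 2 the highest array in the class I pathway and the interferon-induced GTPases. The same holds for the macrophage, granulocyte, hepatoblast, erythroid and B lymphoid markers.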

How the data were processed

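Livers of fetuses at 14.5 days post coitum were compared between CD-fed and HFD-fed dams, and the high-fat diet was begun, per the study, in females 8 weeks of age. The authors hybridised Cy3-labeled cRNA to Agilent mouse arrays and, with Feature Extraction 11.0.1.1, deposited for every spot a background-subtracted, spatially detrended intensity, not scaled between arrays. The deposited flags for outliers and for signal well above background are a score of 0 or 1. The authors' deposited table of normalized signal, the intensity divided by 1 constant per array, was used as an alternative. The labels gave the groups and replicate numbers.

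Spots with outlier flags were left out, spots of a probe were averaged as log2, and the 75th percentile of each array was subtracted. Of 56596 usable probes, 14980 whose signal fell below the 20th percentile of at least 1 array and 284 with a linear CV over 50% in both groups were left out. The remaining 41332 were fitted with limma 3.58.1 in R 4.3.3 (HFD minus CD, no covariates), and p was adjusted by Benjamini-Hochberg over all of them. The fit was tested on simulated data with known answers. Cutoffs were 0.05 for the unadjusted p and 2-fold for the change. Probes were named by RefSeq accession (GRCm38.p6 annotation), and each gene was read from its brightest probe. Python 3.11.15 made the tables (pandas 2.3.3 on numpy 2.4.6) and the figures (matplotlib 3.10.9).

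The members, the lists of pathway genes and markers, and the tests were chosen with earlier results of these data known. Named genes were all members and, of other lists, those with an unadjusted p under 0.05 and the 2 with the highest mean level, with exceptions stated. Median signal was 70.2 to 120.5 per array, 65.4% to 70.0% of spots were well above background, and the number of arrays limits the precision. Alternatives were quantile normalization, normexp, the deposited table, other filters, a signal floor of 5, the mean over a gene's probes, the methods' t-test, Welch's test, the replicate number as a block, and leaving out each array.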

Additional observations from a re-analysis of the deposited data

How the results depend on the processing

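The members past an unadjusted p of 0.05 numbered 1 in the reported fit and 1 in 8 of 16 alternatives. There were 2 with normexp background correction, 3 with a signal floor of 5, 2 in the methods' t-test and 0 in Welch's test. The share of all genes tested at that p was 2.84% in the reported fit. It was 2.11% with normexp, 8.43% with the floor, 6.23% in the methods' t-test and 3.08% in Welch's test. Counts with an array left out are not listed for the members, since a group then has a lone array. The median difference of the members was between -0.11 and 0.042 with an array left out, and within the spread of the arrays in the other alternatives. Of the 76 pathway genes tested, 2 passed in the reported fit, 1 with quantile normalization, normexp, no filter on dim probes or the methods' t-test, 4 with a floor of 5, 0 in Welch's test, and 1 to 12 with an array left out. In the diet difference over all probes, 318 passed both cutoffs in the reported fit, 845 with no filter on dim probes, 48 with normexp, 97 in the methods' t-test, 46 in Welch's test and 654 to 1226 with an array left out. The cause of these changes was not tested, beyond the smaller number of arrays where 1 was left out. A lone array was then assumed to vary like the other group. With an array left out, and with the floor, the share of pathway genes that passed lay below that of all genes tested. Those pathway counts are therefore not read as an effect on the pathway. Ifit3 was negative in all 16 alternatives (-0.79 to -0.51) and past an unadjusted p of 0.05 in 13. Socs1 (-0.04 in the reported fit) moved between -0.48 (without CD replicate 2) and 0.41 (without CD replicate 1). Tapbpl (-0.15 in the reported fit) moved between -0.67 (without CD replicate 1) and 0.38 (without CD replicate 2). The deviations of samples of equal number correlated at -0.10 over all tested probes, and the reported fit did not pair the samples. Such a correlation cannot decide about a few transcripts, and samples of equal number did share the pattern of the sex-linked ones. With the replicate block, 1 member (Ifit3), 2 pathway genes (H2-Oa and H2-Ob, no longer Ifi27) and 435 probes passed. The planned block for slide or scan was not run, since all arrays shared 1 of each. Of the members, Oas3, which is near background, had the widest interval.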
